A study of Mus musculus with 9 samples.

Results

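Astrocytes marked by Igfbp2, Islr, Hs3st3a1 and Slc6a11 were examined in single-cell RNA-Seq of the mouse ventricular-subventricular zone (vSVZ) and of the olfactory bulb, rostral migratory stream and striatum, pooled and called rest of the brain (RoB). A cell was taken when it held at least 5 UMIs (unique molecular identifiers, each standing for 1 captured RNA molecule) of Slc1a2, Slc1a3 and Aqp4 together. It also needed at least 3 UMIs of Igfbp2, Islr and Hs3st3a1 together, more than 2 times the sum of Crym, Gdf10 and Cxcl14 and more than 2 times the sum of Nkx2-1, Gabrg1 and Folh1. Cells with a UMI of Top2a, Mki67 or Frzb, or with more than 1 UMI of Dcx or of Thbs4 and Ecel1 together, were left out. This gave 194 cells of 18390 retained cells (1.05%), and of 6156 astroglia, the cells that met all criteria but those on Igfbp2 to Folh1 and on Thbs4 and Ecel1 (3.15%). Quiescent neural stem cells are therefore among these astroglia, and of the 5199 that also had at most 1 UMI of Thbs4 and Ecel1 together the 194 were 3.73%. They are called Igfbp2/Islr astrocytes here. Because the rule read their UMIs, their difference from other astrocytes is given as a description with no test.

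Astrocytes take up glutamate and GABA from the space around synapses, buffer potassium, supply lipids to neurons and secrete matrix proteins. They carry the marks of the region in which they arose, and those of the olfactory bulb lie among interneurons and dendrites that use GABA and glutamate. IGF binding proteins such as Igfbp2 and Igfbp5 bind insulin-like growth factors outside the cell, Islr encodes a secreted or membrane protein with leucine-rich repeats, Hs3st3a1 an enzyme that sulphates heparan sulphate, and Slc6a11 the GABA transporter GAT-3. In GRCm38 these genes are protein-coding and lie at chr1:72824503-72852474 on the plus strand (Igfbp2), chr9:58156268-58204306 on the minus strand (Islr), chr11:64435332-64522841 on the plus strand (Hs3st3a1) and chr6:114131241-114249952 on the plus strand (Slc6a11).

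All mice were TiCY mice, in which tamoxifen activates a Tlx (Nr2e1) CreERT2 and with it eYFP in neural stem cells and their progeny. The strain, on a C57BL/6 background, also carries a Fas allele (Fastm1Cgn) in its full name. WT young mice were 16 weeks old (tamoxifen at 10 weeks, chase of 6 weeks) and WT old mice 80 weeks (tamoxifen at 71 weeks, chase of 9 weeks). TiCY-IFNAGRKO mice had targeted Ifnar1 and Ifngr1. KO young mice were 16 weeks old (tamoxifen at 7 weeks) and KO old mice 92 to 105 weeks (tamoxifen at 85 and 98 weeks). Both had a chase of 9 weeks. For KO old the stated age is below the tamoxifen age plus the chase, and all are given as reported. KO old mice were older than WT old mice, so genotype in old mice and the interaction also hold this age difference. Each group was 1 reaction that pooled 2 mice, so the reaction and the group cannot be told apart, and the mice of a group are separate animals from 1 run. Cells were sorted as eYFP+ or GLAST+ from the vSVZ and as eYFP+ or eYFP-/PSANCAM low from the RoB, without CD45+, Ter119+ and O4+ cells. Libraries held 27096070 to 78028524 UMIs, and retained cells had a median of 5067 (WT young) to 7437 (WT old) UMIs. Of the retained cells, 60 shared a barcode with another library, and 0 of these were Igfbp2/Islr astrocytes. In their summed counts Ifnar1 stood at 39.2, 31.2, 4.77 and 2.94 CPM (a gene's UMIs scaled to a fixed total per library) and Ifngr1 at 110, 58.3, 9.53 and 2.94 CPM in WT young, WT old, KO young, then KO old. Both receptor genes were lower in the KO libraries. The untargeted subunits Ifnar2 (95.3 to 125 CPM) and Ifngr2 (26.4 to 41.8 CPM) lay in the same range in all 4 libraries.

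The label of an astrocyte was checked with genes the rule did not read, since Slc1a2, Slc1a3 and Aqp4 were required by it. The astrocyte enzyme Aldoc had a UMI in 186 of 194 cells and Slc6a11 in 180 (92.8%). In 287 microglia, used as a background for free RNA, Slc6a11 had a UMI in 1 cell (0.348%), at a median depth of 5234 UMIs against 7198.5 in the Igfbp2/Islr astrocytes. Of the 3 genes of the rule, Islr was present in 174 cells, Hs3st3a1 in 118 and Igfbp2 in 104, and 38 cells held all 3. A small number of cells went against the label. Markers of another cell type reached at least 10 UMIs in 10 cells, of which 7 held fibroblast markers (54 to 258 UMIs), 2 microglial markers (51 and 83 UMIs) and 1 ependymal markers (57 UMIs). The 7 fibroblast-marker cells, 4 from KO old, 2 from KO young and 1 from WT old, had 0 UMIs of Slc6a11 and of Aldoc, and both microglia-marker cells were predicted doublets. The other 184 cells had at most 2 UMIs of fibroblast, 1 of microglial and 4 of ependymal markers. eYFP had a UMI in 10 of the 194 cells (5.15%), a share not above that in microglia (5.23%).

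The label of an olfactory region could be checked only as RoB against vSVZ, because the 3 tissues of the RoB shared a hashtag. A hashtag was called for 126 of the cells, and 123 of them (97.6%, exact 95% binomial interval 93.2 to 99.5, counting error only) were from the RoB. Among astrocytes chosen by Crym, Gdf10 and Cxcl14 (Crym astrocytes), 274 of 1347 called cells (20.3%) were from the RoB, among astrocytes chosen by Nkx2-1, Gabrg1 and Folh1 9 of 22 (40.9%), among the remaining astroglia 31.4%, and among quiescent neural stem cells, chosen by Thbs4 and Ecel1, 1.82%. The hashtag was not part of the rule, so this difference was tested within mice. In the 8 mice with at least 5 called cells of both kinds, the RoB share of Igfbp2/Islr astrocytes was 93.8% to 100% and that of Crym astrocytes 10.1% to 36.7%. The difference was 77.4 percentage points ± 9.73 (SD, n = 8 mice), positive in 8 of 8 (two-sided exact sign-flip permutation test, p = 0.0078125, the smallest that 8 mice allow, adjusted p = 0.015625). The minimum of 20 called cells set at first left 3 mice, with 72.5 points ± 11.3 and an exact p of 0.25, also the smallest possible. Against all other astroglia of the same mouse the difference was 76.6 points ± 9.36, positive in 8 of 8 (exact p = 0.0078125), and without the cells with over 1 UMI of Thbs4 and Ecel1 it was 71.8 points ± 9.29. Against astrocytes chosen by Nkx2-1, Gabrg1 and Folh1 only 1 mouse had 5 called cells of both kinds, at 57.1 points, so no exact p could pass. This comparison was still counted in the adjusted p above. Over all cells, called or not, 69.5% to 89.1% of hashtag counts per library were RoB counts in Igfbp2/Islr astrocytes. In Crym astrocytes the share was 19.2% to 32.1%.

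**Figure D1:**
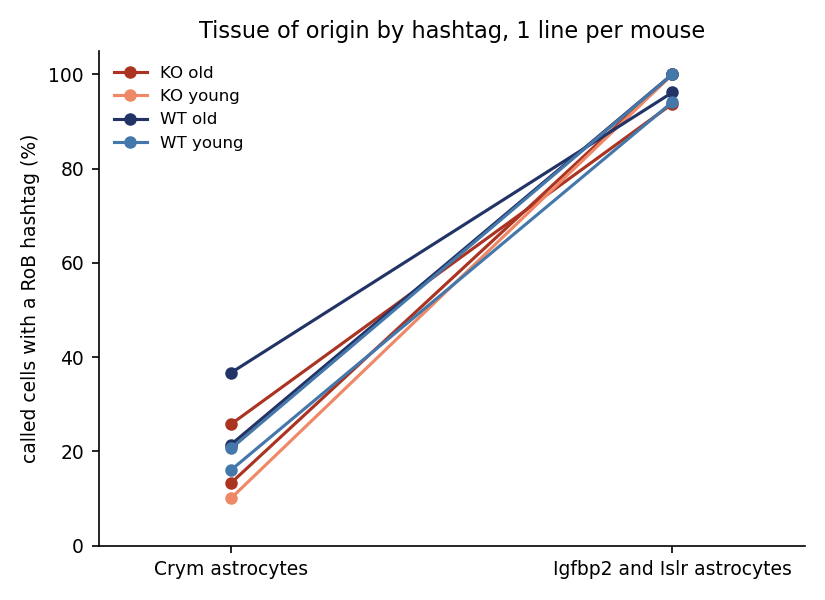
Percentage of hashtag-called cells that came from the RoB (vertical axis) among Crym astrocytes and Igfbp2/Islr astrocytes, with 1 line per mouse and colours for the 4 groups. Every line ends at 93.8% or above for the Igfbp2/Islr astrocytes and starts at 36.7% or below for the Crym astrocytes.

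Few cells lay near the threshold of 3 marker UMIs. Cells with 1 or 2 met the other criteria only with no UMI of Crym, Gdf10, Cxcl14, Nkx2-1, Gabrg1 or Folh1, which limits their number. With all other criteria met, 3 of 6 called cells with 1 marker UMI were from the RoB, 3 of 6 with 2 and 9 of 10 with 3. Slc6a11 stood at 122 CPM in the 23 cells with 1 marker UMI, at 555 CPM in the 13 cells with 2 and at 804 CPM in the 15 cells with 3, and the transcription factor Sp8, which specifies olfactory bulb interneurons, at 4.86, 60 and 142 CPM. The 3921 cells with no marker UMI were taken without the criteria on Crym to Folh1, so Crym astrocytes are among them. They are therefore not a like group to those above. Of their called cells 18.0% were from the RoB, and they had 355 CPM of Slc6a11 and 11.7 CPM of Sp8.

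Igfbp2/Islr astrocytes made up 4.73% of WT young astroglia (67 of 1417, exact interval 3.68 to 5.97), 4.91% of WT old (55 of 1121, 3.72 to 6.34), 1.30% of KO young (27 of 2080, 0.857 to 1.88) and 2.93% of KO old (45 of 1538, 2.14 to 3.90). With the rule applied to counts thinned to 2000 UMIs per cell the shares were 3.18%, 2.82%, 1.37% and 1.68% in the same order, and without stem cell markers 5.88%, 5.37%, 1.64% and 3.24%. These shares mix the 2 tissues, whose proportions were set by dissection and sort. Among astroglia with a RoB hashtag, they were 35.7% and 26.7% for the WT young mice, 22.9% and 17.5% for WT old, 12.3% and 11.6% for KO young, then 13.9% and 11.4% for KO old. WT and KO mice did not overlap, at 17.5% to 35.7% against 11.4% to 13.9%. This comparison was chosen after its values were seen and was not tested, each group was 1 reaction, and the tissue dissected and the sort could not be told apart from genotype. Without the cells of another type the share was 24.1% in the second mouse of WT young and 10.7% in the second mouse of KO old, with the other mice as above.

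**Figure D2:**
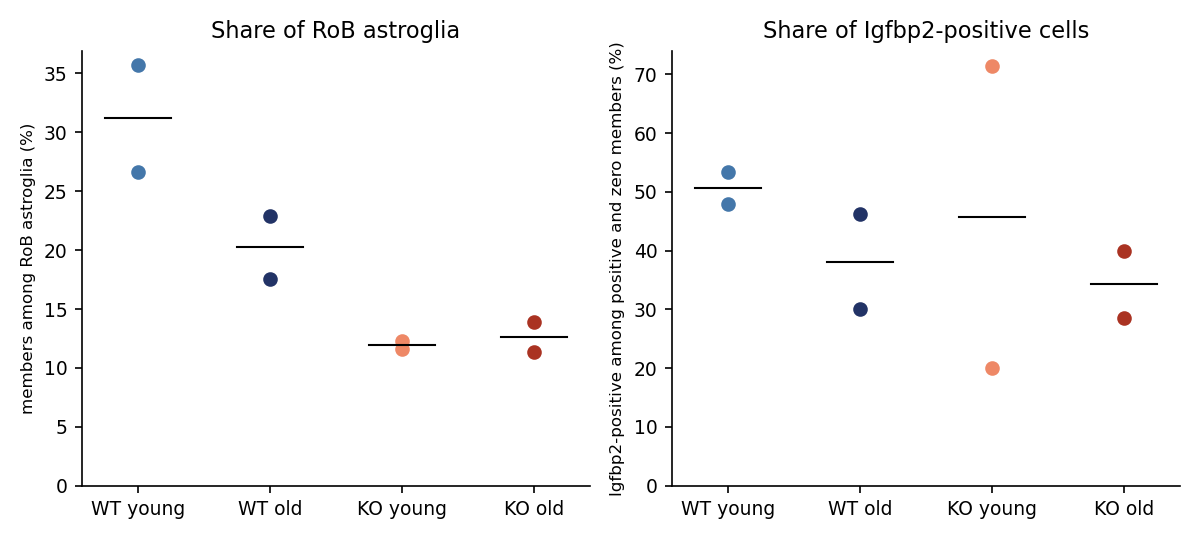
Left, Igfbp2/Islr astrocytes as a percentage of RoB astroglia in each mouse; right, the percentage of these cells that held at least 3 UMIs of Igfbp2, among those with at least 3 or none. Each point is 1 mouse, and on the left WT mice (17.5% to 35.7%) lie above KO mice (11.4% to 13.9%), while on the right the groups overlap.

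Beside all other astroglia, the highest genes of Igfbp2/Islr astrocytes included the regional transcription factors Sp8 and Tshz2 and the glutamate receptor gene Gria1. Of 3608 genes at 50 CPM or more on either side, 15.4% were higher and 18.1% lower in all 4 libraries, and the folds below are means over libraries of log2(CPM + 5). Sp8 stood at 248, 285, 257 and 276 CPM in WT young, WT old, KO young, then KO old, against 14.1 to 21.4 CPM in other astroglia. It was therefore high in every library, by 3.58 ± 0.26 (SD, n = 4 libraries). Gria1, an AMPA-type glutamate receptor subunit, had 225, 317, 200 and 358 CPM against 8.78 to 29.0 CPM, a difference of 3.58 ± 0.34. Other genes at the top were the Src-family kinase Lyn (3.46 ± 0.23), the serine protease Prss23 (3.33 ± 0.17), the kinase Cit (3.10 ± 0.87), the transcription factor Tshz2 (2.84 ± 0.33), the secreted ligand Wnt5a (2.66 ± 0.34) and Hs3st3b1, which makes the same heparan sulphate modification as Hs3st3a1 (2.63 ± 0.31). Sez6 (2.84 ± 0.39), Adam11 (2.77 ± 0.63), Greb1 (2.72 ± 0.60), Cadps2 (2.65 ± 0.51) and 1500015O10Rik (3.21 ± 0.62) completed the list with Serpinf1 and Aebp1.

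Serpinf1 and Aebp1 moved with the fibroblast-marker cells in the KO libraries. Serpinf1 stood at 128, 52.1, 81.0 and 85.2 CPM in all Igfbp2/Islr astrocytes, but among cells with at least 3 Igfbp2 UMIs and no other type's markers it was 156 and 76.6 CPM in WT young and WT old and 0 in both KO libraries. Aebp1 was at most 4.25 CPM in any library among these cells and 0 among cells with no Igfbp2 UMI. The lowest genes were Prss56, a protease gene with 0 UMIs in these cells against 159 CPM in other astroglia, the forebrain transcription factors Six3 (-3.58 ± 0.52) and Nr2f1 (-2.46 ± 1.38), the secreted proteins Ccdc80, Dkk3 (-2.71 ± 0.31) and C1ql3, the Wnt receptor Fzd5, the GDNF receptor Gfra1, Cox4i2 and Fmo1. Without the astroglia with over 1 UMI of Thbs4 and Ecel1, the 15 highest and 10 lowest genes kept their direction in all 4 libraries, with Sp8 at 3.46 ± 0.32 and Six3 at -3.52 ± 0.47. Most other astroglia with a hashtag came from the vSVZ. Beside the astroglia with a RoB hashtag alone, Prss23 (2.63 ± 0.38), Wnt5a (2.34 ± 0.55), Sp8 (2.19 ± 0.78), Gria1 (2.04 ± 0.53), Lyn (2.03 ± 0.44) and Tshz2 (1.75 ± 0.83) were still higher in all 4 libraries, by less than beside all astroglia. Prss56 (-3.50 ± 1.06), the angiotensinogen gene Agt (-2.57 ± 1.09) and Nkx6-2 (-2.47 ± 1.04) were lower.

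Regional transcription factors differed in both directions, with 8 of 14 measured genes higher in all 4 libraries and 5 lower. Among the higher were Sp8, Tshz2, Zic1 (2.62 ± 0.49), Zic2 (2.52 ± 1.00), Pax6 (1.12 ± 0.57), Etv1 (1.01 ± 0.31) and Tcf7l2 (0.68 ± 0.14). Six3, Nr2f1, Emx2 (-2.12 ± 1.05), Meis2 (-0.66 ± 0.26) and Lhx2 (-0.30 ± 0.06) were lower. Of the genes of amino acid and GABA handling, 7 of 17 were higher and 5 lower. The GABA transporter Slc6a11 (1606 against 381 CPM, 2.10 ± 0.59) was higher, as were Gria1, Gria2 (2.08 ± 0.44), the GABA-A receptor subunit gene Gabra2 (1.90 ± 0.19), the mitochondrial glutamate carrier Slc25a18 (1.70 ± 0.58) and the glutamine transporter Slc38a3 (0.91 ± 0.50). The GABA-B receptor genes Gabbr1 (-1.02 ± 0.42) and Gabbr2 (-1.84 ± 0.91), the metabotropic receptor Grm3 (-1.56 ± 0.33), the monoamine oxidase Maob (-1.43 ± 0.57) and the GABA transaminase Abat (-0.51 ± 0.30) were lower.

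General astrocyte genes lay on the low side, with 4 of 30 higher and 16 lower in all 4 libraries and a median of -0.27 beside -0.04 over all genes. The potassium channel Kcnj10 (368 against 111 CPM, 1.71 ± 0.38) and the bicarbonate transporter Slc4a4 (0.83 ± 0.47) were higher, and the Notch target Hes5 (-1.26 ± 0.50), the BMP target Id3 (-1.35 ± 0.61), Agt (-1.91 ± 0.60) and Clu (-0.90 ± 0.17) were lower. In the Notch and BMP list 2 of 13 genes were higher and 7 lower. In lipid transport 6 of 12 genes were higher and 3 lower, led by the fatty acid binding protein Fabp7 (1334 against 577 CPM, 1.16 ± 0.26). In the matrix list 4 of 16 were higher, the BMP antagonist Chrdl1 by 2.15 ± 0.24 and Sparc by 0.87 ± 0.22, and 3 lower, among them Cspg5 (-1.28 ± 0.18). Cholesterol synthesis had 3 of 13 higher and 3 lower, the heparan sulphate genes 2 of 8 and 2, and the respiratory chain 12 of 51 and 4. Without the 10 cells of another type these counts were 3 and 0, 4 and 2, and 12 and 2. In the MHC class I list 2 of 6 genes were higher, of which H2-D1 was at 170 against 70.2 CPM.

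The cells were divided by Igfbp2. Of the 184 without another type's markers, 89 had 0 Igfbp2 UMIs, 4 had 1 to 2, 5 had 3 to 5 and 86 had 6 or more. The rule shaped this distribution, because a cell with UMIs of Crym, Gdf10 or Cxcl14 passed only with more marker UMIs. Cxcl14 had a UMI in 89 of 91 cells with at least 3 Igfbp2 UMIs (median 7 UMIs) and in 42 of 89 cells with none (median 0). Without that criterion 374 cells met the rule, of which 129 had 0, 15 had 1 to 2, 43 had 3 to 5 and 187 had 6 or more Igfbp2 UMIs, so the criterion left out most of the cells with 1 to 5. The 91 cells with at least 3 are called Igfbp2-positive and the 89 with none Igfbp2-zero; the latter met the rule through Islr and Hs3st3a1. The split was chosen after its values were seen, and all values below are a description. The median depth was 7391 UMIs in positive and 6930 in zero cells, and 52 of 52 called positive and 68 of 70 called zero cells were from the RoB. Positive cells made up 60% of both kinds in the young libraries of either genotype, 44.4% in WT old and 39.0% in KO old. By mouse the share was 48% and 53.3% for WT young, 46.2% and 30% for WT old, 71.4% and 20% for KO young, and 40% and 28.6% for KO old, so the groups overlapped.

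Single cells fell on opposite sides for several genes. The Wnt antagonist Sfrp1 (chr8:23411502-23449632 on the plus strand) had a UMI in 2 of 91 positive and 71 of 89 zero cells, and Igfbp5 in 6 and 64. Carbonic anhydrase 2 (Car2), in contrast, was found in 86 positive and 10 zero cells, the alarmin Il33 in 52 and 1, the potassium channel Kcnj16 in 66 and 2, Btbd17 in 91 and 21 and the calcium-binding protein S100b in 81 and 14. In microglia at a median of 5234 UMIs, 0.697% of cells had a UMI of Sfrp1, 3.14% of Igfbp5, 1.39% of Car2 and 0% of Il33. Igfbp5 in positive cells and Il33 in zero cells were thus close to the level of free RNA. Car2, Il33 and Btbd17 were also found in 80.6%, 63.0% and 94.0% of Crym astrocytes, and the part of the Cxcl14 criterion in these differences was not tested. Sp8 was found in 63 positive and 66 zero cells and Slc6a11 in 91 and 83.

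**Figure D3:**
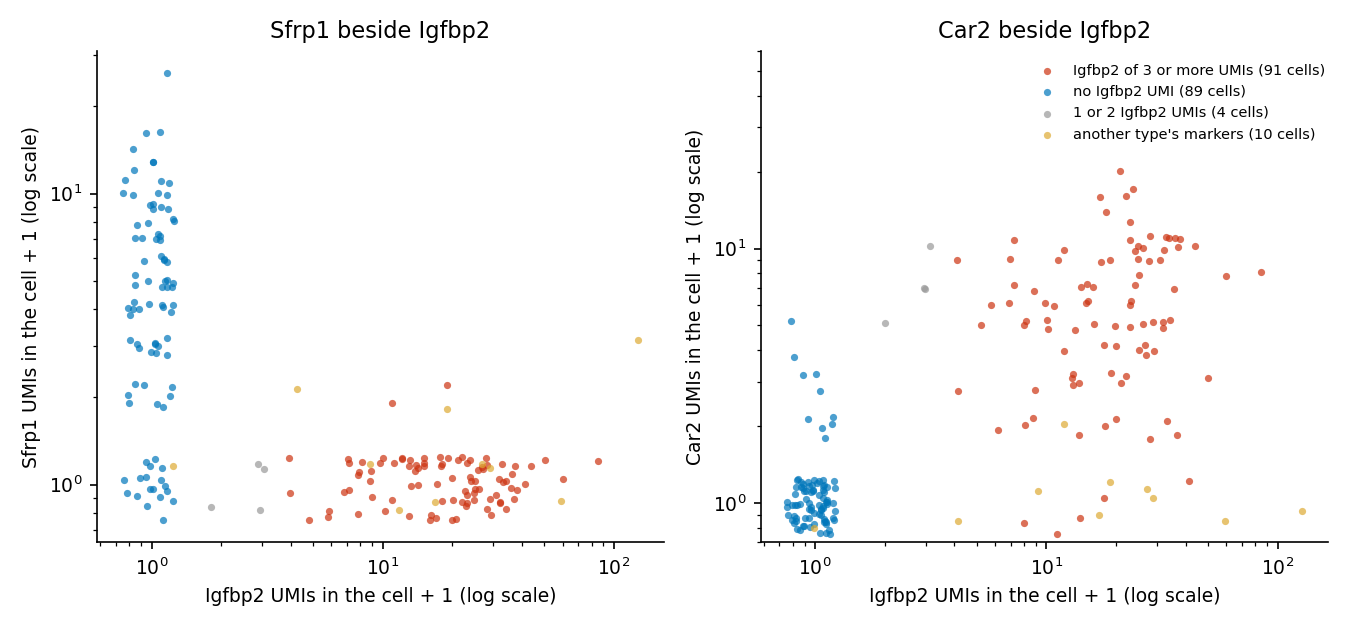
UMIs of Sfrp1 (left) and Car2 (right) against UMIs of Igfbp2 in each of the 194 cells, both axes as UMIs + 1 on a log scale. Small random shifts separate the points. Colours mark Igfbp2-positive cells, Igfbp2-zero cells, cells with 1 or 2 Igfbp2 UMIs and the 10 cells with another type's markers. Igfbp2-positive cells have almost no Sfrp1 (2 of 91 with a UMI), while Igfbp2-zero cells have almost no Car2 (10 of 89).

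In library sums the same genes differed in every library. Sfrp1 had 4.72, 4.25, 0 and 0 CPM in positive cells of the 4 libraries, in the order WT young, WT old, KO young, KO old, and 615, 613, 954 and 538 CPM in zero cells. Igfbp5 stood at 4.72, 38.3, 8.0 and 0 CPM against 417, 643, 659 and 936 CPM. Both were thus lower in positive cells in each library, with differences of -6.60 ± 0.74 and -5.64 ± 1.50 on the log2(CPM + 5) scale (SD, n = 4). Other genes of the zero cells were Tmem132b, 1500015O10Rik, the semaphorin receptor Plxnc1, the lysophosphatidic acid receptor Lpar1, the arginine synthesis enzyme Ass1, Cd200, the glutamine transporter Slc38a1 (-4.04 ± 1.72) and Tox3. Car2 stood at 925, 562, 736 and 605 CPM in positive cells and at 22.8, 17.1, 14.0 and 53.8 CPM in zero cells, higher in each library by 4.60 ± 0.85. Il33 had 193, 145, 144 and 295 CPM against 0, 0, 14.0 and 0 CPM. Also higher in positive cells were the guanine nucleotide exchange factor Vav3, the lipid transporter Mfsd2a, Tmem176a, Fndc5, Kcnj16, Atp13a4, Pcdh7, the sulphotransferase Chst1 and Tshz2 (4.28 ± 1.46), so that of the 2 top regional factors Tshz2 went with the positive cells and Sp8 (-0.12 ± 0.82) with neither.

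**Figure D4:**
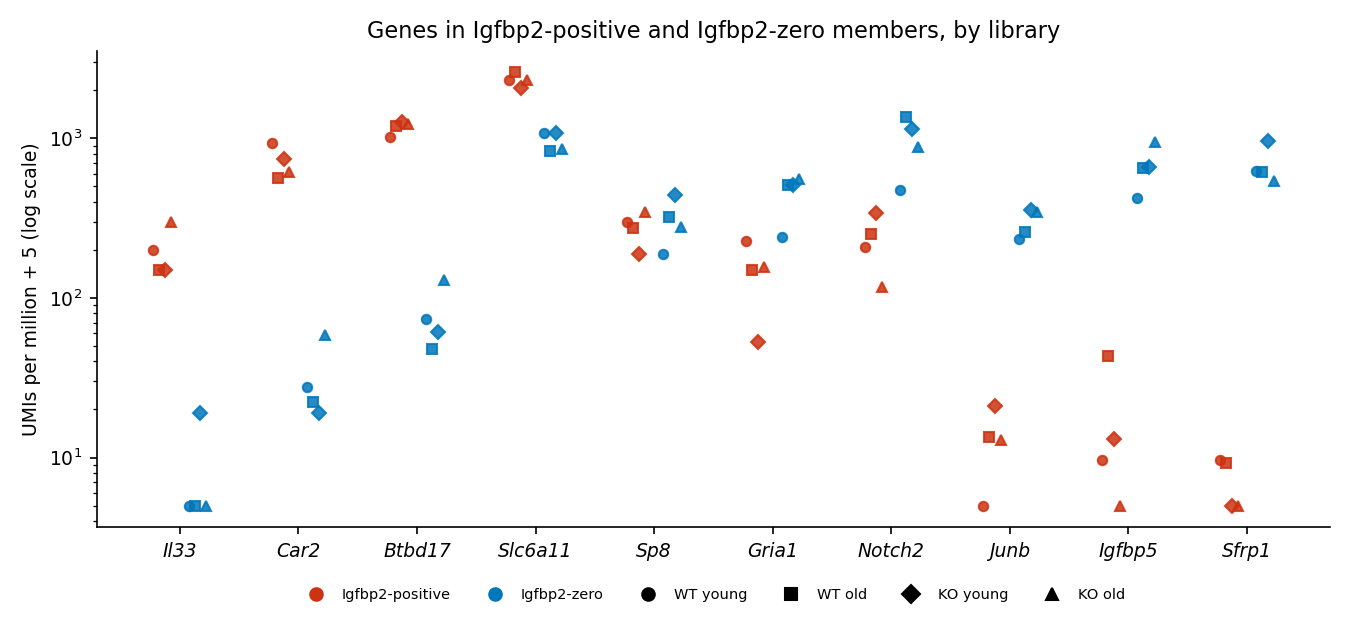
Level of 10 genes (CPM + 5, log axis) in Igfbp2-positive and Igfbp2-zero cells, with 1 symbol per library. For Sfrp1 the 4 positive libraries lie at or below 4.72 CPM and the 4 zero libraries at or above 538 CPM, and for Car2 the order is the reverse, at or above 562 CPM against at or below 53.8 CPM.

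Positive cells were high in many general astrocyte genes, in genes of GABA handling and in those of cholesterol synthesis. Across 3895 genes, 18.3% were higher and 29.2% lower in positive cells in all 4 libraries, with a median of -0.22. Of 30 general astrocyte genes 16 were higher and 6 lower (median 0.72), among the higher the gap junction gene Gjb6 (635 against 105 CPM, 2.57 ± 0.50), the serine transporter Slc7a10 (2.86 ± 0.87), S100b (3.48 ± 1.33), glutamine synthetase Glul (1.08 ± 0.10) and Fgfr3 (2.37 ± 0.28). Of the genes of amino acid and GABA handling 10 of 16 were higher and 3 lower, with Slc6a11 at 2316 against 954 CPM (1.28 ± 0.31) and Grm3 by 2.48 ± 0.87. Gria1 was on the zero side (141 against 450 CPM, -1.74 ± 1.30) while Gria2 was on the positive side (0.89 ± 0.34). In cholesterol synthesis 10 of 16 genes were higher and 0 lower, with Msmo1 at 740 against 228 CPM (1.74 ± 0.35), and in the respiratory chain 25 of 51 were higher and 4 lower.

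Zero cells were high in immediate early genes and in part of the matrix genes. Of 12 immediate early genes 8 were lower in positive cells in all 4 libraries and 0 higher, with a median of -2.85. Fos stood at 505, 191, 72.0 and 908 CPM in positive and at 1677, 2229, 1823 and 3643 CPM in zero cells. In KO young 120 of the 130 Fos UMIs of zero cells came from 1 cell, and without it the level was 156 CPM. In KO old 111 of the 114 Fos UMIs of positive cells came from 1 cell, and without it the level was 25.4 CPM. Junb (-4.65 ± 0.65) and Jund (-3.00 ± 0.59) were lower in positive cells in every library. The matrix list held 8 of 15 genes higher in positive cells (Bcan 1.71 ± 0.06, Chrdl1 2.96 ± 0.43, Ptn 1.93 ± 0.56) and 5 lower (Sparc -2.60 ± 0.45, Cst3 -0.69 ± 0.16). Vimentin (Vim, 113 against 728 CPM, -2.80 ± 0.64), Notch2 (-2.07 ± 0.76), Id4 (-2.00 ± 0.63) and H2-D1 (-2.08 ± 0.39) were on the zero side, and Hes5 (1.55 ± 0.64) and Htra1, a protease that cleaves IGF binding proteins (771 against 125 CPM, 2.58 ± 0.21), on the positive side.

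From cell to cell, the variance over the mean of UMIs scaled to a common depth had a median of 1.20 over 663 genes. It was highest for the nuclear RNA Malat1 (36.1), the secreted protease inhibitor Cst3 (23.7), Fos (15.9), the ribosomal-RNA-derived Gm42418 (11.8), Jun (7.00), the growth factor Ptn (6.10) and Sparcl1 (5.20). Igfbp2 (4.64) and Igfbp5 (3.82) were in the same list. Across 28 sums of cell class and library, which share libraries and depth, the genes whose level was most like that of Igfbp2 were Cadps2 (r = 0.92), Zic2 (0.89), Greb1 (0.89), Aebp1 (0.88) and Adam11 (0.88). One class was chosen by Igfbp2, so genes high in that class have a high r by construction, and Aebp1 came with the fibroblast-marker cells.

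Age in WT mice was compared on UMIs summed per mouse with edgeR's quasi-likelihood test and Benjamini-Hochberg adjustment. With at least 5 called cells per mouse, a minimum lowered after the cells were counted, 8 mice entered the fit and 4 of 2559 genes changed in WT (0.156%, with 0.0391% higher and 0.117% lower in old). All 4 were also among the 18 of 3602 genes (0.500%, 8 higher and 10 lower in old) called with the first minimum of 20 cells, which left only 1 WT young and 2 WT old mice. DESeq2 called 0 genes in those 3 mice, with 26 at an unadjusted p under 0.05 against 258 in edgeR, and 1 gene in the 8. Hopx, a homeodomain co-factor of stem cells and astrocytes (chr5:77086988-77115121 on the minus strand), had 784 and 704 CPM in the WT young mice and 155 and 149 CPM in the WT old mice. It fell by 2.28 ± 0.31 on the log2 scale (SE, adjusted p = 6.99e-05), and the KO mice lay between 363 and 683 CPM. Its call was lost where the rule was applied to counts thinned to 2000 UMIs per cell (-1.42, adjusted p = 0.21). Ctnnbip1, an inhibitor of beta-catenin, had 590 and 486 CPM in WT young and 182 and 149 CPM in WT old, and fell by 1.69 ± 0.32 (adjusted p = 0.0101). Fabp7 had 3006 and 1954 CPM against 1192 and 746 CPM and fell by 1.35 ± 0.29 (adjusted p = 0.0308). The receptor gene Notch2 had 339 and 425 CPM against 972 and 1186 CPM and rose by 1.50 ± 0.32 (adjusted p = 0.0308). Thinned counts also ended the calls of Ctnnbip1 (-1.63, adjusted p = 0.0853) and Notch2 (1.22, adjusted p = 0.71), and a marker sum of at least 5 UMIs that of Notch2 (1.49, adjusted p = 0.20), all in edgeR.

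Without the first WT young mouse Ctnnbip1 (-1.52, adjusted p = 0.19), Fabp7 (-0.99, adjusted p = 1) and Notch2 (1.35, adjusted p = 0.50) were no longer called by edgeR, and the same held without the second WT old mouse (-1.56, -1.06 and 1.36, adjusted p 0.65 to 1). Ctnnbip1 was also lost without the first WT old mouse (-1.86, adjusted p = 0.0523), and Notch2 without the second WT young mouse (1.65, adjusted p = 0.0968). Igfbp2-positive and Igfbp2-zero cells were mixed in these sums, and 48% and 53.3% of cells were positive in the WT young mice against 46.2% and 30% in the WT old. Hopx in library sums was 821 CPM in WT young and 243 CPM in WT old among positive cells, and 311 and 77.2 CPM among zero cells. Notch2 was 203 and 247 CPM among positive and 471 and 1350 CPM among zero cells, so that its level differed more between ages among zero cells. Fabp7 was 2506 and 1744 CPM among positive and 1116 and 283 CPM among zero cells.

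The other 14 genes called in the 3 mice rest on 1 WT young mouse, which is assumed to vary like the WT old mice. Serpinf1 (-2.16 ± 0.54), Id3 (-2.08 ± 0.50), the intermediate filament gene Gfap (-1.98 ± 0.49), the splicing factor gene Puf60 (-1.89 ± 0.47), Car2 (-1.35 ± 0.31), the glycolytic enzyme Eno1 (-1.04 ± 0.27) and Aqp4, a gene of the rule (-1.05 ± 0.27), were called lower in the WT old mice. Gadd45g (1.49 ± 0.39), Fos (1.54 ± 0.31), Btg2 (1.59 ± 0.38), Egr1 (2.09 ± 0.53), Tmem132b (2.20 ± 0.59), Atl2 (3.07 ± 0.82) and Bst2 (3.96 ± 0.95) were called higher. With 8 mice Serpinf1 fell under the count filter and the other 13 of these 14 were not called by edgeR (adjusted p from 0.0938 for Bst2 upward), and Fos had 574 and 2294 CPM in the WT young mice against 1308 and 2089 CPM in the WT old, which overlap. In the 3 mice, immediate early genes had 3 of 10 called higher and the Notch and BMP list 1 of 12 in each direction (Notch2 and Id3), beside 0.222% of all genes called higher and 0.278% lower. With 8 mice none of these 3 immediate early genes (Fos, Btg2 and Egr1) was called by edgeR (adjusted p 0.95 to 1).

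**Figure D5:**
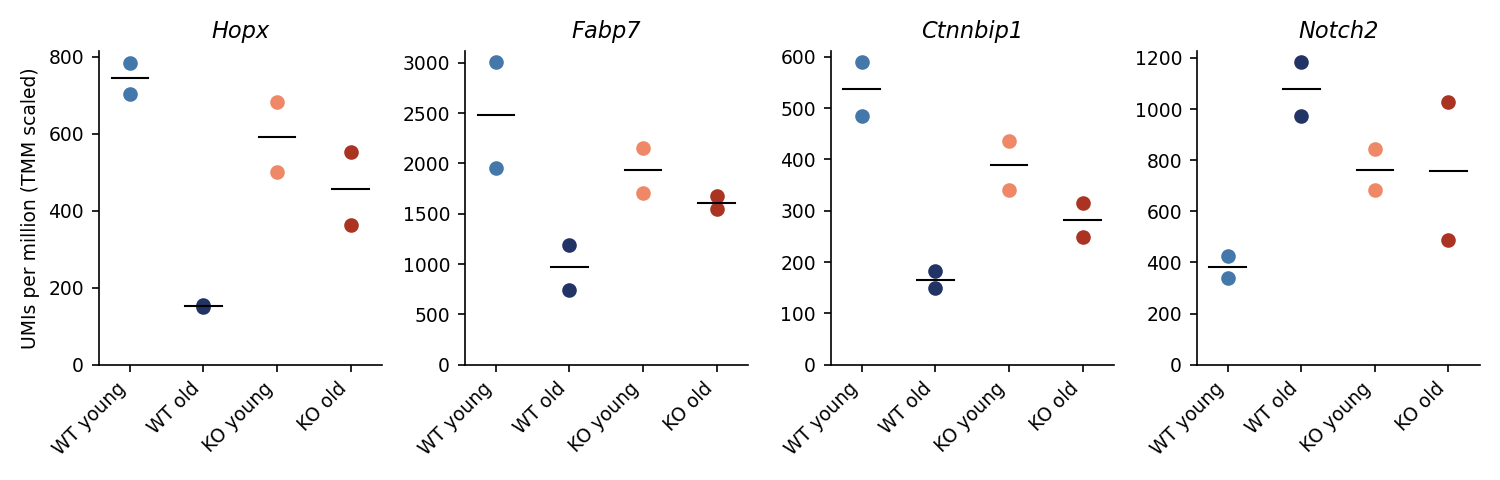
CPM, scaled by TMM, of Hopx, Fabp7, Ctnnbip1 and Notch2 in Igfbp2/Islr astrocytes of each of the 8 mice, with a line at the mean of each group. For Hopx the WT old mice (155 and 149 CPM) lie below all other mice (363 to 784 CPM).

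In KO mice, 2 of 2559 genes changed with age (0.0782%), both upward, and edgeR had 186 at an unadjusted p under 0.05. The KO young sums held only 7 and 5 called cells, and the KO old sums 10 and 16. The transcription factor Jun (chr4:95049034-95052222 on the minus strand) had 293 and 312 CPM in KO young and 2018 and 1418 CPM in KO old, and rose by 2.50 ± 0.43 (adjusted p = 0.0061). Its call was lost with a marker sum of at least 5 UMIs (2.40, adjusted p = 0.16) and with thinned counts (1.71, adjusted p = 0.64), both in edgeR. The stress-induced Gadd45g had 171 and 125 CPM against 1088 and 790 CPM and rose by 2.62 ± 0.47 (adjusted p = 0.0061). In library sums, Jun was 344 and 183 CPM among positive cells of KO young and KO old and 224 and 1372 CPM among zero cells, and Gadd45g 8.0 and 55.7 CPM among positive and 252 and 904 CPM among zero cells. Among zero cells both genes were thus higher in KO old, while among positive cells Gadd45g was higher, at low levels, and Jun lower. Positive cells were 71.4% and 20% of both kinds in the mice of KO young and 40% and 28.6% in those of KO old.

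Between genotypes, Jun was the single gene called in young mice (0.0391% of 2559), at 293 and 312 CPM in KO young and 865 and 2282 CPM in WT young, a fall of 2.36 ± 0.43 on the log2 scale (adjusted p = 0.0256). It was not called by edgeR without the second WT young mouse (-1.58, adjusted p = 0.99), with a marker sum of at least 5 UMIs (-2.15, adjusted p = 0.93) or with thinned counts (-1.98, adjusted p = 0.18). The KO young sums in this comparison held only 7 and 5 called cells. In old mice 0 of 2559 genes were called by edgeR and 0 by DESeq2 (97 and 21 at an unadjusted p under 0.05), and the lowest adjusted p was that of Hopx (1.61 ± 0.34, adjusted p = 0.0949). The age change of Jun differed between genotypes by 3.24 ± 0.55 (adjusted p = 0.00805 in edgeR, 1 of 2559 genes, 0.0391%), while Hopx, whose fall was called in WT and not in KO, gave 1.93 ± 0.46 (adjusted p = 0.29). In simulated sums of these depths 53.6% of genes changed by 2 on the log2 scale were recovered for this interaction. For the other comparisons the share was 70.7% to 84.2%, with age in WT simulated for the 3-mouse fit alone. Changed genes were drawn from the more highly expressed ones, with 1 common spread for all genes, so recovery of genes at lower levels was not tested. Of genes changed by 1, at most 25.9% were recovered, so smaller changes were mostly not detectable with these cells.

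Whether age acted in the same way on Crym astrocytes of the same mice was tested as the difference of the 2 age changes, averaged over genotypes. It passed in 28 of 7841 genes (0.357%), 17 with a higher and 11 with a lower age change in Igfbp2/Islr astrocytes, and the median over all genes was 0.15. With DESeq2 size factors it passed in 24, 10 higher and 14 lower, with a median of 0.07. Jun (1.72 ± 0.24, adjusted p = 7.62e-09), Gadd45g (1.89 ± 0.31), Jund (1.42 ± 0.26), Fosb (5.57 ± 1.29), Slc38a1 (3.16 ± 0.56), the cytoskeletal genes Tmsb4x (1.28 ± 0.22) and Vim (1.18 ± 0.26), S100a6 (1.28 ± 0.33) and the ribosomal protein genes Rplp1, Rpl37a and Rpl4 were on the higher side. Hopx (-1.40 ± 0.26, adjusted p = 0.000131), Slc6a11 (-0.94 ± 0.21), Slc25a18 (-1.14 ± 0.28), the NMDA receptor subunit Grin2c (-1.58 ± 0.40), the phagocytic receptor Mertk (-1.68 ± 0.37), Tmem176a (-1.79 ± 0.40), Lman1 (-1.43 ± 0.28) and Cit (-1.60 ± 0.40) were on the lower side, with Hs3st3a1, a gene of the rule. The average joins unlike changes in the 2 genotypes. Within Igfbp2/Islr astrocytes alone, Jun changed with age by -0.74 in WT and 2.50 in KO, and Hopx by -2.28 in WT and -0.36 in KO. Over 17 alternatives Gadd45g and Hopx were called in 17 and Jun and Jund in 16, but Rpl37a was lost in 14, Grin2c and S100a6 in 12, Rplp1 in 11, and Rpl4 and Slc6a11 in 8. Of the lists, 3 of 17 immediate early genes were called higher, and of 19 genes of amino acid and GABA handling 1 was called higher and 3 lower. Fosb, among those immediate early genes, fell under the count filter of the fit on Igfbp2/Islr astrocytes alone. Its call was lost in 5 of 17 alternatives. Of the 17 genes on the higher side 15 were lower in positive than in zero cells by the mean over libraries. Of the 11 on the lower side 10 were higher in positive cells. Over all 3895 genes compared the median of positive minus zero was -0.22, with 29.2% lower and 18.3% higher in all 4 libraries. In library counts, which include uncalled cells, positive cells were 60% in both young groups, 44.4% in WT old and 39.0% in KO old. Among the called cells used here, the shares by mouse were 48% and 53.3% for WT young and 46.2% and 30% for WT old. They were 71.4% and 20% for KO young and 40% and 28.6% for KO old. The part of these shares in the differences was not tested. For genotype, 0 of 7841 genes passed in edgeR and in DESeq2, with 397 and 187 at an unadjusted p under 0.05.

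Interferon-stimulated genes were followed because the targeted receptors carry that signal. Summed over 47 genes, they stood at 472, 587, 360 and 470 CPM in positive cells of WT young, WT old, KO young, then KO old, and at 425, 1217, 266 and 371 CPM in zero cells. In zero cells WT old (exact Poisson interval 1080 to 1368 CPM) lay above WT young (321 to 552 CPM) and both KO libraries. A UMI of the list was found in 28 of the 30 zero cells of WT old. One of these cells held 94 of the 284 UMIs, and without it the level was 851 CPM. The intervals cover counting error of pooled UMIs and not the spread between mice, so this difference was not tested. All Igfbp2/Islr astrocytes had a median depth of 5673 UMIs in WT young and 8657 in WT old. Bst2, which tethers budding virions, had 37 UMIs in 15 of the 30 zero cells of WT old and 0 in the 24 of WT young, which allows up to 12.5% of cells with a UMI (3 of 24) and sets no limit on cells that express the gene. Per mouse, Bst2 had 8.08 and 0 CPM for WT young, 132 and 149 CPM for WT old, 0 and 31.2 CPM for KO young, then 15.8 and 64.9 CPM for KO old. WT old mice were above all others, but in the 8 mice the change did not pass (4.53 ± 1.07, adjusted p = 0.0938 in edgeR), and it was called in the 3 mice with at least 20 cells (adjusted p = 0.0147) and in 9 of 23 alternatives, among them the 8-mouse fit with no low-count filter or without any 1 KO mouse. Ifi27 was 248.6 CPM in zero cells of WT old against 37.9 CPM in WT young and at most 16.1 CPM in KO. Of 6 interferon-stimulated genes tested in those 3 mice, 1 was called, beside 0.500% of all genes.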

How the data were processed

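Single-cell expression and hashtag libraries of 4 groups were analysed, and 1 sample without a group label was not used here. Per the authors' methods and processing notes, reads of the expression libraries were filtered for index hopping and assigned to GRCm38 genes by kallisto and bustools and hashtags with CITE-seq-Count, and the deposited matrices hold raw UMI counts per barcode with no cell filter. Scanpy 1.6.0 is also named there. Of 32287 gene IDs, 32235 were found in GENCODE vM21 (GRCm38).

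Barcodes with 1000 to 20000 UMIs, 100 to 6000 genes and under 10% mitochondrial UMIs were kept. Doublets were predicted with Scrublet (scanpy 1.11.5) in 335 cells (1.82%) and kept. Hashtags were called with a multinomial mixture of 5 components for 5935 cells (32.3%), and hashtag numbers were read as mice. Members, gene lists and the comparisons were chosen with earlier results of these data known. Descriptions used UMIs summed per library as log2(CPM + 5), for genes at 50 CPM or more. Named genes were the 15 highest and 10 lowest there (15 each way for positive against zero cells). For each test they were taken from the called genes, with the 4 interferon receptor genes. Overlap of mice was not used to choose them. The 15 gene lists (428 genes) were written by hand. Tests used UMIs summed per mouse in edgeR 4.0.16 under R 4.3.3 (filterByExpr, TMM, robust quasi-likelihood fit, Benjamini-Hochberg adjusted p under 0.05), with 1 fit over all mice and group as the term, and the mouse as a block where classes were compared. Sums per mouse held 32746 to 182006 UMIs after the filter, which limits precision. The minimum of 20 called cells per mouse allowed age in WT only, with 3 mice, so the other comparisons used at least 5. DESeq2 1.42.0 was an alternative. The alternatives without stem cell markers, without the criterion on Crym, Gdf10 and Cxcl14 and without cells of another type were chosen after seeing the data. Shares were tested by exact permutation with scipy 1.17.1. The scripts were tested on simulated data with 200 of the more highly expressed genes drawn to change. Intervals (Clopper-Pearson and exact Poisson, 95%) cover counting error only. Results for some genes are not reported here.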

Additional observations from a re-analysis of the deposited data

Results flagged for a closer look

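The age change of Jun differed between genotypes by 3.24 ± 0.55 (SE) on the log2 scale (KO minus WT, adjusted p = 0.00805 in edgeR), at 865 and 2282 CPM in WT young, 966 and 888 CPM in WT old, 293 and 312 CPM in KO young and 2018 and 1418 CPM in KO old. It was marked because the test of the difference between genotypes passed, and the age change in WT alone did not (-0.74, adjusted p = 0.81 in edgeR). The difference was lost with a marker sum of at least 5 UMIs (2.90, adjusted p = 0.48 in edgeR) and with thinned counts (2.15, adjusted p = 0.49), and the cause was not tested. The KO young values rest on sums of 7 and 5 called cells.

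The age change of 28 genes differed between Igfbp2/Islr astrocytes and Crym astrocytes of the same mice, by the interaction of class and age in edgeR. Averaged over genotypes, Jun, Gadd45g and Slc38a1 were on the higher side and Hopx and Slc6a11 on the lower side. Within Igfbp2/Islr astrocytes alone, Jun changed with age by -0.74 in WT and 2.50 in KO, and Hopx by -2.28 in WT and -0.36 in KO. Of the 17 genes with a higher age change 15 were lower in Igfbp2-positive than in Igfbp2-zero cells, and of the 11 with a lower one 10 were higher. Over all 3895 genes compared between these 2 kinds the median was -0.22, with 29.2% lower and 18.3% higher in positive cells in all 4 libraries. The part of the share of positive cells in these differences was not tested. With DESeq2 size factors 24 genes passed, 10 higher and 14 lower.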

How the results depend on the processing

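No pairing across groups was possible because hashtag numbers in different groups belong to different mice, so no replicate block could be fitted across groups. Comparisons between cell classes were made within mice. With the first minimum of 20 called cells, age in WT called 18 genes, against 0 with DESeq2, 6 with no low-count filter and 4 with at least 5 cells. With at least 5 cells that count was 4 under DESeq2 size factors, RoB cells only, doublets left out or cells of another type left out, 1 with DESeq2, 9 with no low-count filter, 8 with the strict hashtag call, 3 with a marker sum of at least 5 UMIs, 1 with the rule applied to thinned counts and 1 to 10 when leaving out 1 mouse. Age in KO called 2 genes, 6 with no low-count filter, 19 with the strict call and 1 with the higher marker sum, and 2 to 21 without 1 mouse. Genotype in young mice called 1 gene, 10 with the strict call, 0 with the higher marker sum and 0 to 12 without 1 mouse. Genotype in old mice called 0 genes, 17 with no low-count filter, 17 with the strict call and 0 to 18 without 1 mouse. The interaction called 1 gene, 3 with no low-count filter, 11 with the strict call, 0 with the higher marker sum and 1 to 13 without 1 mouse. The difference in age change from Crym astrocytes held 28 genes (17 higher), 24 with DESeq2 size factors (10 higher), 7 with DESeq2, 16 with RoB cells only, 11 with thinned counts and 8 to 41 without 1 mouse. For genotype it held 0, 6 with the strict call, 1 with thinned counts and 0 to 7 without 1 mouse. Leaving out the first or second mouse of WT young, WT old, KO young and then KO old, in that order, gave 7, 3, 7, 1, 10, 8, 7 and 5 genes for age in WT, 2, 4, 2, 2, 17, 21, 16 and 2 for age in KO, and 5, 0, 1, 1, 12, 4, 1 and 1 for genotype in young mice. In the same order it gave 0, 8, 2, 1, 14, 15, 18 and 0 for KO against WT among old mice, 4, 2, 2, 2, 7, 13, 5 and 1 for the interaction of age and genotype, 15, 15, 28, 8, 21, 41, 30 and 15 for the age difference from Crym astrocytes, and 0, 0, 0, 1, 7, 0, 1 and 0 for the genotype one. The cause of these moves was not tested.

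The RoB share against Crym astrocytes was 72.5 points with 3 mice, and past the test at 77.4 with at least 5 cells, 76.1 with the strict call, 77.6 without doublets, 78.1 with the higher marker sum, 79.2 with thinned counts, 78.1 without cells of another type, and without 1 mouse at 77.1 and 77.3 (WT young 1 and 2), 79.9 and 77.2 (WT old), 77.1 and 75.6 (KO young) and 76.0 and 78.7 (KO old), and at 69.0 to 79.0 without 1 mouse at 20 cells, where no p could pass. Against all other astroglia it was 71.0 with 20 cells. As a share of hashtag counts per library with no call, the difference from Crym astrocytes was smaller. RoB counts were 82.0% against 30.3% in WT young and 89.1% against 32.1% in WT old. They were 69.5% against 28.1% in KO young and 71.1% against 19.2% in KO old. With 4 libraries no exact p could pass. Shares of astroglia lay outside the counting interval with thinned counts in WT young (3.18%), WT old (2.82%) and KO old (1.68%) and over all cells (2.11%), and over all cells were 2.73% with the higher marker sum and 3.73% without stem cell markers. Fos and Btg2 for age in WT reversed with at least 5 cells without the first WT young mouse (-0.42 and -0.15) and without the second WT old mouse (-0.10 and -0.23). Over 50 called genes and their alternatives, 473 of 961 values kept the call, 484 lost it and 4 reversed. At 20 cells the strict call, the higher marker sum, thinned counts and a mouse left out gave no test of age in WT.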

Other observations

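Further lists were compared between Igfbp2-positive and Igfbp2-zero cells as a description over 4 libraries on the log2(CPM + 5) scale (mean ± SD), with no test. Over all genes 18.3% were higher and 29.2% lower in positive cells in all 4 libraries, and the counts of these short lists are to be read beside those shares. Of 3 measured IGF system genes that the rule did not read, 1 was higher in positive cells in all 4 libraries (Htra1) and 1 lower (Igfbp5). The receptor gene Igf1r was at 28.4 against 65.8 CPM, with mixed directions. Of 7 reactive astrocyte genes 3 were higher and 3 lower. Il33 (4.77 ± 1.27), the sphingosine kinase Sphk1 (2.79 ± 0.98) and the transcription factor Stat3 (0.68 ± 0.35) were higher in positive cells, and the complement gene C4b (-1.92 ± 1.07), Ggta1 (-3.23 ± 0.92) and Vim were lower. Gfap, at 77.4 against 143.8 CPM, went in mixed directions.

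Lipid transport held 5 of 12 genes higher in positive cells and 4 lower. The desaturase gene Scd1 (1.65 ± 0.60), Fabp7 (1.62 ± 0.83), the acyl-CoA synthetase Acsbg1 (1.40 ± 0.32), Fabp5 (1.33 ± 0.93) and Apoe (0.80 ± 0.20) were higher, and the sterol exporter Abcg1 (-3.36 ± 1.32), the phospholipid transfer protein Pltp (-2.80 ± 1.42), the prostaglandin D synthase Ptgds (-2.46 ± 0.45) and Scd2 (-0.85 ± 0.36) were lower. The 2 desaturase genes thus lay on opposite sides. Of 10 heparan sulphate genes 0 were higher and 2 lower (Extl2 and Hs3st3b1), and of 6 MHC class I genes 0 were higher and 4 lower. Of 5 interferon receptor and signalling genes 1 was higher (Stat3) and 2 lower, Jak1 (-0.84 ± 0.42) and the feedback inhibitor Socs3 (-2.57 ± 1.70). Beside all other astroglia, 0 of 4 IGF system genes were higher and 1 lower (Igf1r, -1.13 ± 0.47), and of 3 interferon receptor and signalling genes Ifnar2 was higher (0.56 ± 0.11) and Jak1 lower (-0.40 ± 0.28). Of 4 reactive astrocyte genes there, Gfap (1.18 ± 0.82) and Vim (0.87 ± 0.69) were higher and C4b lower (-1.43 ± 0.57).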
